A study of Mus musculus with 6 samples.

Results

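Imprinted growth genes were followed in the diaphragm of mouse embryos at E14.75. The set holds 10 genes, Dlk1, H19, Meg3, Peg3, Mest, Cdkn1c, Plagl1, Grb10, Ndn and Peg10, chosen by name out of the 23073 genes with a value in every library. RNA-Seq libraries of whole muscle came from erbB3 WT embryos, whose muscle contains Schwann cells (wild-type 5 and 6), and from erbB3 KO embryos, whose muscle is labelled as lacking them (mutant 1 and 2). The other 2 libraries are titled TOM (Wnt1-Ribotag 1 and 2). They hold RNA precipitated with an anti-hemagglutinin antibody, and their label gives the genotype Wnt1-Cre, Ribotag, erbB3 WT. Ribotag is an allele of the ribosomal protein gene Rpl22 that carries a hemagglutinin tag once Cre has acted, and Wnt1-Cre acts in the neural crest, from which Schwann cells derive, and in the dorsal neural tube. Each Wnt1-Ribotag library pooled the diaphragms of a litter and was made from far less RNA than the whole-muscle libraries, and oligo-dT beads selected the RNA of all groups. The study genotyped the litters afterwards and found Cre in only part of the embryos. Diaphragms of Cre-negative littermates, without the tag, were therefore homogenized with the others. Genotype, precipitation, pooling and RNA input therefore cannot be told apart in comparisons of Wnt1-Ribotag with whole muscle. The study describes the whole-muscle replicates as separate biological samples, and the labels do not name the animals behind them.

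Imprinted genes are transcribed mainly from the allele of a single parent, under the control of stretches of DNA that are methylated in the egg or the sperm. Many of them act on fetal growth, with paternally expressed genes often promoting it and maternally expressed genes often restraining it. They are high in fetal muscle, and most fall after birth. Of the 10 genes, Dlk1, Peg3, Mest, Plagl1, Ndn and Peg10 are paternally expressed, and H19, Meg3, Cdkn1c and, in most tissues, Grb10 are maternally expressed. H19 and Meg3 give spliced, polyadenylated long noncoding RNAs, while the other 8 genes encode proteins.

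Dlk1 (ENSMUSG00000040856), which encodes a membrane-bound and secreted relative of the Notch ligands, spans chr12:109452823-109463336 on the plus strand of GRCm38. Meg3 (ENSMUSG00000021268) follows it on the same strand at chr12:109541001-109571726, in the imprinted domain that ends at Dio3. H19 (ENSMUSG00000000031), which contains the precursor of miR-675 and lies beside Igf2, spans chr7:142575529-142578143 on the minus strand. Cdkn1c (ENSMUSG00000037664), an inhibitor of cyclin-dependent kinases, lies at chr7:143458339-143461050, minus strand. Grb10 (ENSMUSG00000020176), an adaptor that dampens insulin and IGF receptor signalling, lies at chr11:11930508-12038683, minus strand. The zinc finger genes are Plagl1 (ENSMUSG00000019817), a transcription factor, at chr10:13060504-13131694, plus strand, and Peg3 (ENSMUSG00000002265) at chr7:6703892-6730431, minus strand. Mest (ENSMUSG00000051855), which encodes a protein of the hydrolase fold, lies at chr6:30723547-30748465, plus strand. Ndn (ENSMUSG00000033585), a MAGE family gene of the Prader-Willi region, lies at chr7:62346569-62350262, plus strand. Peg10 (ENSMUSG00000092035), derived from a retrotransposon, lies at chr6:4747306-4760517, plus strand. In the GENCODE M21 annotation, 30.7% of the exonic bases of Cdkn1c are shared with the opposite-strand gene Gm44732, 23.1% of those of Mest with Copg2 and 6.79% of those of Meg3 with Gm26906. The strand setting of the authors' counting is not given in the sources used here, so reads of these stretches cannot be assigned to a strand.

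The start regions of Dlk1 and Meg3 are shown because these neighbours in an imprinted domain are expressed from opposite parental alleles and their RPKM ratio is given for every library. Each sequence runs from 250 bases before to 50 bases after the start (RefSeq, GRCm38.p6), plus strand, 5′ to 3′, with CG dinucleotides, the sites of DNA methylation, in capitals. The positions are chr12:109452573-109452872 for Dlk1 and chr12:109540746-109541045 for the first start of Meg3.
Dlk1: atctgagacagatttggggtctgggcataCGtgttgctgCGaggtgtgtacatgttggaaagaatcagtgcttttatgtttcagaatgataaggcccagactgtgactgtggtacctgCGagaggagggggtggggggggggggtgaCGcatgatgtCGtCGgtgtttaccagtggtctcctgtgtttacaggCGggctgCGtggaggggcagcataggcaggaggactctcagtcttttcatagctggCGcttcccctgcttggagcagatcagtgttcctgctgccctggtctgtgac
Meg3: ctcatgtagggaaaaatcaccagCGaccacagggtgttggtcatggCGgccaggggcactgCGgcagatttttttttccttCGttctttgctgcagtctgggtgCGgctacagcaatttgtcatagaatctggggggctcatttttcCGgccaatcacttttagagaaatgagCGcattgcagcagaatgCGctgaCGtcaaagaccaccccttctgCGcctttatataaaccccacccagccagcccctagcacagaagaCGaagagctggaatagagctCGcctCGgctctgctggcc
The Dlk1 window holds 9 CG and the Meg3 window 13, against a median of 7 over the 32851 windows of the table. Windows with as many CG as these make up 45.8% and 37.9% of the table. The Meg3 window contains the letters TATAAA, searched on both strands, as do 13.6% of all windows, and the Dlk1 window does not. In all, 11 windows of 7 members matched, 10 of them at or above the median, and the count of CG was highest in a window of Grb10, 45, which 1.93% of all windows reach. H19, Cdkn1c and Peg10 were not matched.

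H19, Mest and Meg3 also carry microRNAs in their transcripts, and the mature sequences are shown because most of the precursors are separate entries of the files, some with values unlike those of their host genes (RefSeq, GRCm38.p6, 5′ to 3′). Capitals mark the seed, bases 2 to 8, which pairs with target RNA.
miR-675-5p (H19): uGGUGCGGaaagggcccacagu
miR-675-3p (H19): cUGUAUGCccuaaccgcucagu
miR-335-5p (Mest intron): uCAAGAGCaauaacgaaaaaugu
miR-335-3p (Mest intron): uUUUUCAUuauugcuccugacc
miR-770-5p (Meg3): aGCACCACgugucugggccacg
miR-770-3p (Meg3): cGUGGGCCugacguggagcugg
miR-1906 (Meg3): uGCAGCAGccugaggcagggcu
miR-434-3p (opposite Rtl1): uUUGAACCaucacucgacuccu
miR-433-3p (opposite Rtl1): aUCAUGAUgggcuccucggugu
No seed is shared among these 9 sequences. The values of the precursors follow after those of the genes, except that of miR-675, which was not analysed here.

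The depth of the libraries, read from the value given to genes without reads, lay between 100178863 and 230216660 mapped reads. RPKM, read numbers divided by gene length and library depth, were compared as log2(RPKM + 0.5). Erbb3 does not tell the genotypes apart, with an RPKM between 11.9 and 25.3 in the 6 libraries. Sox10, a transcription factor of Schwann cells, had an RPKM of 2.89 and 2.16 in wild-type, 0.00854 and 0.0178 in mutant and 15.5 and 32.2 in Wnt1-Ribotag libraries. The summed RPKM of 12 Schwann cell markers was 64.7 and 57.8 in wild-type, 51.2 and 29.2 in mutant and 183 and 397 in Wnt1-Ribotag libraries. Muscle markers were abundant in Wnt1-Ribotag RNA too. The sum of 13 was 3659 and 2957 in wild-type, 6222 and 4317 in mutant and 3299 and 3094 in Wnt1-Ribotag libraries. In mutant vs. wild-type 5 of the 13 had both mutant libraries higher and 0 were called in limma, with 5 at an unadjusted p under 0.05, while 50% of all genes did not overlap and 0.171% were called. Acta1, skeletal muscle actin, had an RPKM of 678 and 578 in Wnt1-Ribotag libraries. Both Wnt1-Ribotag libraries lay above both wild-type libraries in 4 muscle markers and below them in 4, while 54.3% of all genes did not overlap in this comparison. Against mutant, 1 of the 13 was called, Mylpf, a myosin light chain gene named after its values were seen, with an RPKM of 797 and 795 in Wnt1-Ribotag and 2325 and 2068 in mutant libraries (adjusted p = 0.0496 from limma). Summed RPKM of 6 neuron markers reached 98.9 and 430 there, against 8.17 to 49.7 in whole muscle. The sum of 12 liver markers was 538 and 164 in wild-type, 21.7 and 13.2 in mutant and 317 and 216 in Wnt1-Ribotag libraries. Connective tissue markers summed to 2059 and 2167 in Wnt1-Ribotag libraries and to 2150 to 3052 in whole muscle, and the 4 markers of mesothelium to 73.1 and 56.7 against 114.5 to 131. Sums were also lower in Wnt1-Ribotag libraries for 6 erythroid markers, 3186 and 2934 against 4007 to 7521, and for 6 macrophage markers, 54.7 and 47.7 against 77.5 to 102. Mutant 2 stood apart in Xist, the X-inactivation RNA, with an RPKM of 0.0808, against 52.8 to 182 in the other libraries. The part of these shifts in the values below was not tested. No precipitation from untagged embryos is among the 6 libraries. RNA on tagged ribosomes and RNA carried over from other cells therefore cannot be told apart in Wnt1-Ribotag libraries.

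**Figure D1:**
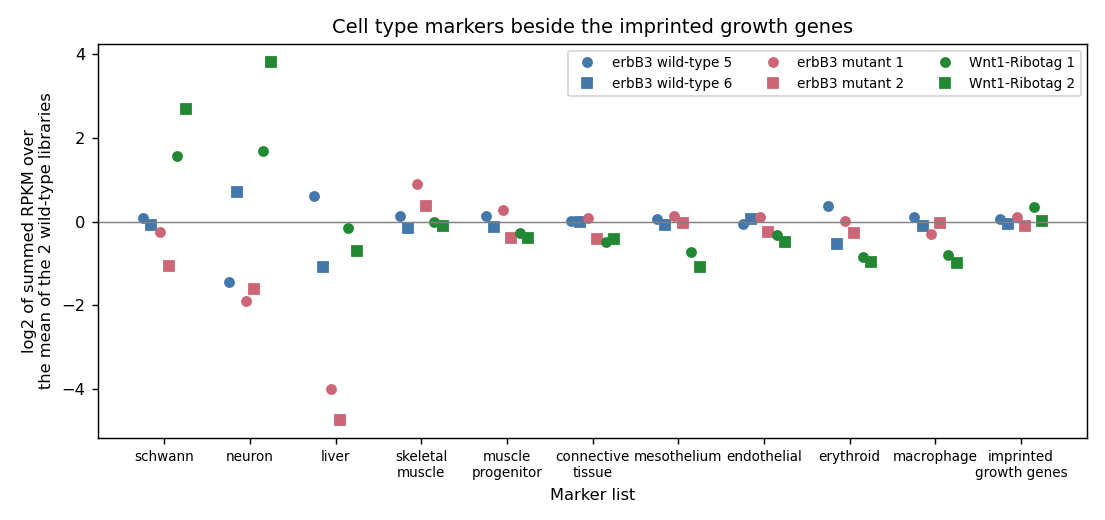
Summed RPKM of 10 cell type marker lists and of the 10 imprinted growth genes in each library, as log2 of the ratio to the mean of both wild-type libraries. The imprinted growth genes stay near 0 in all libraries, while Schwann cell and neuron markers are higher in Wnt1-Ribotag and liver markers lower in mutant libraries.

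All 10 genes were abundant and above the floor in all 6 libraries. Their summed share of all RPKM was lowest in mutant 2, 1.81%, and highest in Wnt1-Ribotag 1, 2.97%. H19 ranked 3 among all genes in every library, those of precipitated Wnt1-Ribotag RNA included. Its RPKM was 5573 and 4867.5 in wild-type, 5742 and 5178 in mutant and 8341 and 6097 in Wnt1-Ribotag libraries. Both Wnt1-Ribotag libraries were above the 4 whole-muscle libraries, and the lower of them exceeded mutant 1 by little.

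Cdkn1c came next, with an RPKM of 1131 and 983 in wild-type, 1338 and 1108 in mutant and 647 and 761 in Wnt1-Ribotag libraries. Both Wnt1-Ribotag libraries were below the whole-muscle range. Its rank went from 26 at best to 74 at worst, and its log2 range over the libraries, 1.05, was the widest of the 10 genes. No other member reached Cdkn1c in any library, and no library of Cdkn1c reached H19.

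Peg3, Peg10, Mest and Plagl1 formed a band of nearly equal level, with wild-type means of 537 ± 69.3, 516 ± 31.2, 507 ± 11.5 and 466 ± 22.3 RPKM (SD, n = 2). The wild-type libraries of Peg3 and Peg10 overlapped, as did those of Peg10 and Mest, while those of Mest and Plagl1 did not. In mutant and in Wnt1-Ribotag libraries all of these neighbours overlapped. Plagl1 was the steadiest member, with an RPKM between 388 and 495 and a log2 range of 0.35, followed by Peg3 with 427 to 586 and a range of 0.46. In 9 of the 10 genes the log2 range stayed under 1.

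Dlk1 stood beside Plagl1 in whole muscle and overlapped with Grb10 in Wnt1-Ribotag RNA. Its RPKM was 482 and 414 in wild-type, 422 and 261 in mutant and 243 and 293 in Wnt1-Ribotag libraries. The mutant libraries lay far apart, with mutant 1 inside the wild-type range and mutant 2 inside the Wnt1-Ribotag range.

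Grb10 had an RPKM of 244 and 277 in wild-type, 247 and 238 in mutant and 265 and 193 in Wnt1-Ribotag libraries. The lowest levels were those of Meg3 and Ndn. Meg3 had an RPKM of 154 and 159 in wild-type, 192 and 120 in mutant and 157 and 148 in Wnt1-Ribotag libraries, so that wild-type and Wnt1-Ribotag libraries lay between the mutant ones. Ndn had an RPKM of 136 and 115 in wild-type, 145 and 110 in mutant and 87.5 and 147 in Wnt1-Ribotag libraries. Wild-type libraries of Grb10, Meg3 and Ndn did not overlap with each other. A level per length depends on the gene model behind it, which matters most for Meg3, whose exons in M21, all isoforms joined, add up to 18089 bases against 2460 in H19.

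**Figure D2:**
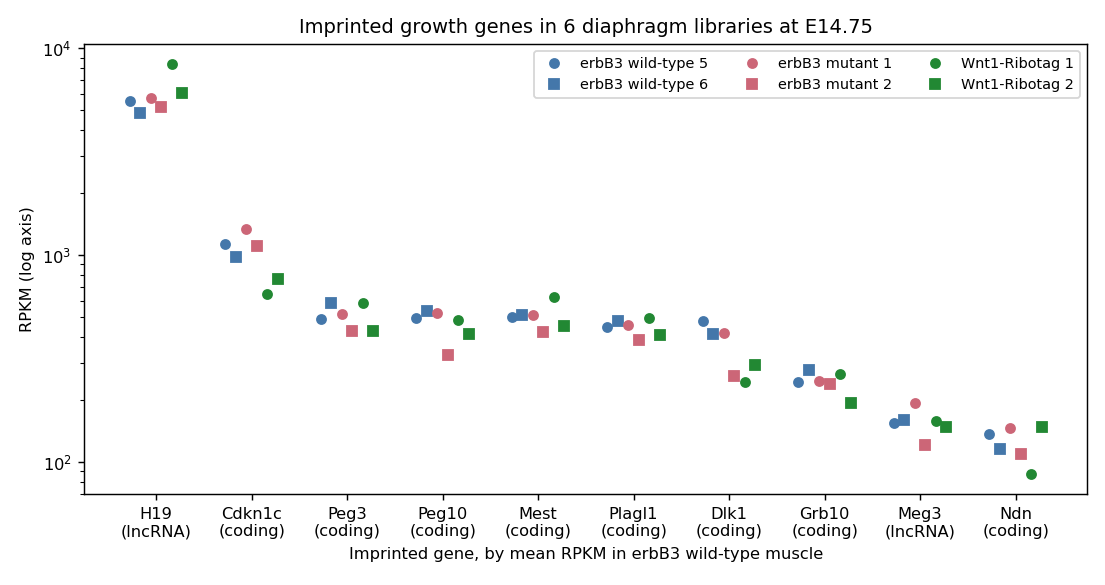
RPKM of the 10 imprinted growth genes on a log axis, ordered by their wild-type mean, with 1 point per library and with protein-coding and long noncoding (lncRNA) genes marked. H19 lies at 4867.5 or more in all libraries, and Cdkn1c and Dlk1 are lower in both Wnt1-Ribotag libraries than in both wild-type libraries.

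The first comparison asked how muscle without Schwann cells differed from wild-type muscle. None of the 10 imprinted growth genes passed the test between mutant and wild-type muscle, and Dlk1 and Peg10 had the lowest mutant means relative to wild-type. In limma, 0 of 10 were called at the adjusted threshold of 0.05, and an unadjusted p under 0.05 was reached by 0, while 24 of the 14052 genes tested passed, 0.171% (1691 at an unadjusted p under 0.05). No member differed at least 2-fold in all 4 pairs of libraries, against 0.448% of all genes. No member had both mutant libraries outside the wild-type range on one side, against 50% of all genes. The median log2 fold change of the members was -0.11, beside -0.10 over all genes, with 7 members lower and 3 higher.

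Dlk1 had the largest difference, a log2 fold change of -0.43 (SE 0.24, 95% interval -0.98 to 0.12, adjusted p = 0.465 from limma). It rested on mutant 2: the log2 fold change was -0.08 without mutant 2 and -0.78 without mutant 1. Peg10, whose RPKM was 494 and 538 in wild-type but 526 and 328 in mutant libraries, was split the same way, with a log2 fold change of -0.31 (interval -0.86 to 0.23). Cdkn1c had the largest positive value, 0.21 (interval -0.27 to 0.68). The noncoding RNAs gave 0.07 (interval -0.56 to 0.70) for H19 and -0.04 (interval -0.54 to 0.46) for Meg3. For the other 5 genes the log2 fold change lay between -0.18 for Peg3 and 0.02 for Ndn. The intervals of Dlk1, H19, Peg3, Cdkn1c and Peg10 reach beyond a 1.5-fold change, so that equal levels were not shown. In tissue RNA, fewer cells of a type and less RNA per cell cannot be told apart.

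The second comparison set precipitated Wnt1-Ribotag RNA against total RNA of wild-type muscle. Dlk1 and Cdkn1c were lower and H19 was higher in both Wnt1-Ribotag libraries than in both wild-type libraries, and the other members had smaller differences. None passed the test over all genes. In limma 0 of 10 members were called and 2 had an unadjusted p under 0.05, while 1 of 14418 genes was called, 0.00694% (2813 at an unadjusted p under 0.05). No member differed at least 2-fold in all 4 pairs, against 2.34% of all genes. The groups did not overlap in 4 members, H19 upward and Dlk1, Cdkn1c and Peg10 downward, while they did not overlap in 54.3% of all genes. The median log2 fold change was -0.12 in the members and -0.05 over all genes.

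The mean RPKM of Dlk1 was 448 ± 48.2 in wild-type and 268 ± 35.4 in Wnt1-Ribotag libraries (SD, n = 2), 0.598 times as high. Its log2 fold change was -0.74 (SE 0.19, 95% interval -1.22 to -0.26, adjusted p = 0.183 from limma). Single pairs of libraries gave values from -0.99 to -0.50. Cdkn1c had a mean of 1057 ± 105 and 704 ± 80.8 RPKM, a log2 fold change of -0.59 (SE 0.19, interval -1.07 to -0.11, adjusted p = 0.215 from limma). Its pairs gave values from -0.81 to -0.37. H19 had a mean of 5220 ± 499 and 7219 ± 1587 RPKM, a log2 fold change of 0.45 (SE 0.24, interval -0.17 to 1.07, adjusted p = 0.364 from limma), with 0.13 to 0.78 in the pairs, but 0 after quantile normalization, which sets genes of equal rank equal. Peg10 had a log2 fold change of -0.20 (interval -0.65 to 0.24), came as close to 0 as -0.03 in a pair and turned to 0.023 after quantile normalization. Meg3, the other noncoding RNA, had -0.04 (interval -0.43 to 0.36).

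Peg3, Mest, Plagl1, Grb10 and Ndn overlapped between the groups, with log2 fold changes between -0.20 for Grb10 and 0.07 for Mest. The calls depended on the Wnt1-Ribotag libraries, which differed from each other more than the whole-muscle replicates did (r of log2 values 0.929, against 0.991 in wild-type and 0.986 in mutant). With Wnt1-Ribotag 1 left out, 1 member passed, Dlk1 (adjusted p = 0.0351 from limma), and with Wnt1-Ribotag 2 left out 3 passed, Dlk1 (0.0095), Cdkn1c (0.0214) and Ndn (0.0365). In these fits the lone library is assumed to vary like the wild-type libraries, and 4482 and 5965 genes passed in all. Ndn turned from -0.51 without Wnt1-Ribotag 2 to 0.24 without Wnt1-Ribotag 1.

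The last comparison set Wnt1-Ribotag RNA against mutant muscle, which differ both in Schwann cells and in the kind of RNA. Cdkn1c was lower and H19 higher in both Wnt1-Ribotag libraries than in both mutant libraries. In limma 0 of 10 members passed and 1 had an unadjusted p under 0.05, while 171 of 14325 genes were called, 1.19%. A 2-fold difference in all 4 pairs was found in 0 members and in 3.95% of all genes, and groups that did not overlap in 2 members and in 54.1% of all genes. The median log2 fold change was 0.04 in the members and over all genes.

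For Cdkn1c the log2 fold change was -0.79 (SE 0.25, 95% interval -1.39 to -0.20, adjusted p = 0.175 from limma), and single pairs gave -1.05 to -0.54. For H19 it was 0.39 (SE 0.29, interval -0.32 to 1.09, adjusted p = 0.506 from limma), and single pairs gave 0.09 to 0.69, with 0 after quantile normalization. Dlk1 had -0.31 (interval -1.02 to 0.40), and mutant 2 with an RPKM of 261 lay between the Wnt1-Ribotag libraries. The other members had log2 fold changes between -0.15 for Ndn and 0.20 for Mest. This comparison shares libraries with both others, so its values are not further evidence of the same differences.

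**Figure D3:**
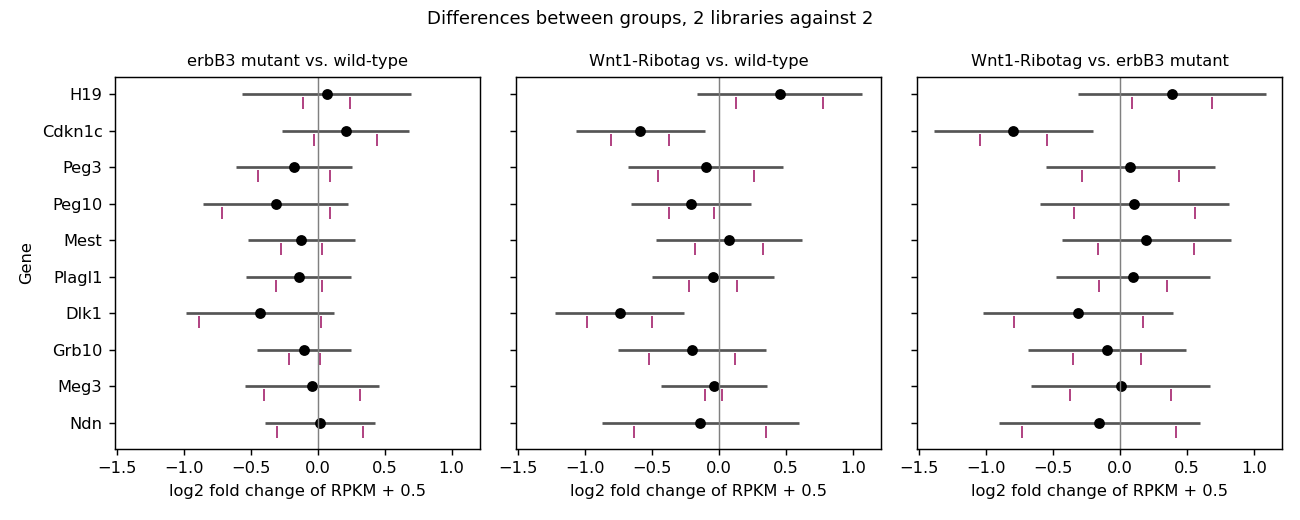
Log2 fold change of RPKM + 0.5 for the 10 imprinted growth genes in each comparison, with the 95% interval from limma as a line and the lowest and highest of the 4 library pairs as short ticks. Of the 30 intervals, those of Dlk1 and Cdkn1c in Wnt1-Ribotag vs. wild-type and of Cdkn1c in Wnt1-Ribotag vs. mutant lie below 0 on the unadjusted scale.

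H19 and Meg3, of which H19 is by far the larger, made up more of the summed RPKM of these 10 genes in Wnt1-Ribotag than in each whole-muscle library. With Igf2 added to the sum, this held against each wild-type library but not against mutant 2. Neither gene was called in the main fits, and H19 had a log2 fold change of 0 against wild-type after quantile normalization. H19 and Meg3 together held 59.3% and 56.2% of the summed RPKM of the 10 genes in wild-type, 58.7% and 61.7% in mutant and 71.2% and 66.8% in Wnt1-Ribotag libraries. The Wnt1-Ribotag libraries were above the 4 whole-muscle libraries. With Igf2, a coding imprinted gene outside the set, in the sum, an alternative added after the data were seen, the shares were 53.2% and 50.2% in wild-type, 52.8% and 56.5% in mutant and 54.9% and 58.2% in Wnt1-Ribotag libraries, and Wnt1-Ribotag 1 lay below mutant 2. Meg3 held 3.78% and 3.90% of the summed RPKM of Meg3 and the 8 coding genes in wild-type, 4.40% and 3.53% in mutant and 4.38% and 4.55% in Wnt1-Ribotag libraries. Against its neighbour Dlk1, Meg3 stood at a ratio of 0.320 and 0.384 in wild-type, 0.455 and 0.462 in mutant and 0.647 and 0.505 in Wnt1-Ribotag libraries. Both RNAs of the pair were read in the same library, so that scaling does not enter the ratio. The ratio was not tested between groups. H19 stood at 4.93 and 4.95 times the RPKM of Cdkn1c in wild-type, 4.29 and 4.67 times in mutant and 12.9 and 8.01 times in Wnt1-Ribotag libraries. This ratio was not among the planned ones and joins the members least alike in course, so it is a description only. The planned ratio of H19 to Igf2, given below, was lower in both Wnt1-Ribotag libraries than in each whole-muscle library.

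Over all long noncoding RNAs, values in Wnt1-Ribotag RNA lay on both sides of those in wild-type muscle. The median log2 fold change against wild-type was 0.03 over 408 long noncoding genes tested, with 209 higher and 199 lower, and -0.05 over 13360 protein-coding genes, with 6078 higher and 7282 lower. The classes were not tested against each other. The middle 50% of long noncoding genes lay between -0.50 and 0.57, a span that holds both H19 and Meg3. Against mutant, 5 of 404 long noncoding genes were called, 1 higher and 4 lower, beside 148 of 13267 protein-coding genes, 138 higher and 10 lower.

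**Figure D4:**
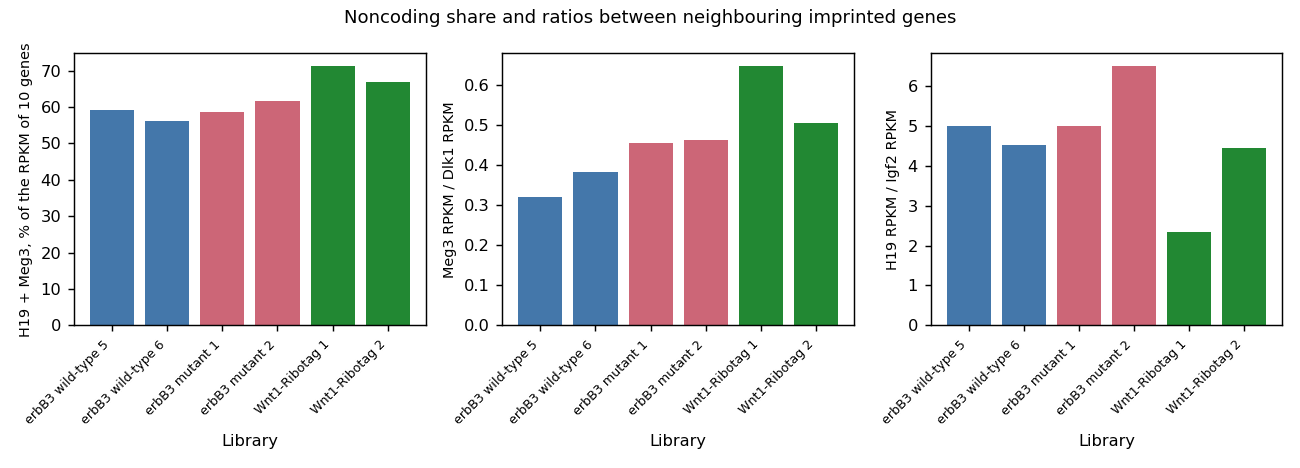
Share of H19 and Meg3 in the summed RPKM of the 10 genes, and the RPKM ratios of Meg3 to Dlk1 and of H19 to Igf2, in each library, on axes from 0. The noncoding share is 66.8% or more in the Wnt1-Ribotag libraries and 61.7% or less in the others.

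Igf2, the growth factor gene that shares enhancers with H19 and is expressed from the other allele, had an RPKM of 1112.5 and 1078 in wild-type, 1147 and 797 in mutant and 3550 and 1373 in Wnt1-Ribotag libraries. The ratio of H19 to Igf2 was 5.01 and 4.52 in wild-type, 5.01 and 6.50 in mutant and 2.35 and 4.44 in Wnt1-Ribotag libraries. In Wnt1-Ribotag 1 both genes of the pair were at their highest, and the ratio was lowest. The log2 fold change of Igf2 against wild-type was 1.01 (SE 0.46, adjusted p = 0.309 from limma).

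Other imprinted genes were not called either. Of 26 further paternally expressed genes listed, 21 are in the files, and of 25 maternally expressed ones 23. In limma 0 were called in any comparison, with 19 or 20 of the paternal and 17 to 19 of the maternal list tested. At an unadjusted p under 0.05 stood 1 paternal and 3 maternal genes in mutant vs. wild-type, 4 and 5 in Wnt1-Ribotag vs. wild-type and 6 and 2 in Wnt1-Ribotag vs. mutant. Over all genes tested the shares at that p were 12%, 19.5% and 19.3% in these comparisons (2758 genes in the last), and the counts of the lists below are to be read beside them. Nap1l5, a paternally expressed gene of the nucleosome assembly protein family, was the single gene of these lists at least 2-fold apart in all 4 pairs of a comparison. This was Wnt1-Ribotag vs. mutant, where 3.95% of all genes were that far apart. The RPKM of Nap1l5 was 0.294 and 0.860 in wild-type, 0.263 and 0.337 in mutant and 2.08 and 9.90 in Wnt1-Ribotag libraries, with no call in limma. It passed the filter of a mean RPKM of 0.5 against mutant only through the Wnt1-Ribotag libraries, so its difference is a description. It was not tested in mutant vs. wild-type and stayed far below the level of the 10 members.

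Next to Igf2, the highest of these genes were Gnas, Copg2, Nnat and Cd81. Copg2, a coat protein subunit gene that overlaps Mest on the opposite strand, had an RPKM of 131 and 148 in wild-type, 145 and 129 in mutant and 271 and 190 in Wnt1-Ribotag libraries. Both Wnt1-Ribotag libraries were above whole muscle, with a log2 fold change of 0.70 against wild-type (SE 0.23, adjusted p = 0.215 from limma). Nnat, which encodes a small membrane protein of developing neural tissue, had an RPKM of 349 in Wnt1-Ribotag 2, against 78.4 to 133 in the other libraries, with no call in a test. Neuron markers were also highest in that library, and their part was not tested. Cd81, a tetraspanin gene, had 94.5 and 106 in Wnt1-Ribotag libraries against 130.1 to 149.7 in whole muscle (log2 fold change against wild-type -0.58, SE 0.16, adjusted p = 0.190 from limma). Gnas, which encodes the stimulatory G protein alpha subunit, gave 0.01.

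The members' neighbours in the IGF pathway were followed because Grb10, H19 and Igf2 act on it. All 11 listed genes of the IGF pathway were tested, and in limma 0 were called in any comparison, with 4, 5 and 4 at an unadjusted p under 0.05 in mutant vs. wild-type, Wnt1-Ribotag vs. wild-type and Wnt1-Ribotag vs. mutant. In mutant vs. wild-type muscle all 11 had a lower mean, with a median log2 fold change of -0.21, while 67% of all genes tested had a lower mean. In 4 of them both mutant libraries lay below both wild-type libraries, against 50% of all genes outside the wild-type range on either side. In Wnt1-Ribotag RNA, Igfbp2, which encodes a secreted IGF binding protein, had an RPKM of 52.1 and 53.6, against 113 to 149 in whole muscle. The log2 fold change was -1.38 against wild-type (SE 0.16, adjusted p = 0.134 from limma) and -1.28 against mutant (adjusted p = 0.0655). Irs2, an adaptor of the insulin and IGF receptors, gave -1.42 against wild-type (adjusted p = 0.170), from an RPKM of 3.79 and 3.38 to 0.774 and 1.32. Igf2r, the maternally expressed receptor that clears IGF2, had an RPKM of 61.9 and 66.5 in wild-type, 56.7 and 35.6 in mutant and 44.4 and 33.8 in Wnt1-Ribotag libraries. The other IGF pathway genes, Igf1r, Insr, Irs1, Igfbp3 and Igfbp4, had log2 fold changes against wild-type between -0.67 for Igf1r, the IGF1 receptor, and 0.41 for Insr, the insulin receptor. Igfbp5 and Igf1 were highest in Wnt1-Ribotag 1, with 1506 and 321, while Wnt1-Ribotag 2 had 374 and 76.7, near the whole-muscle levels.

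Of 15 long noncoding RNAs listed, H19 and Meg3 among them, 8 are in the files, and in limma 0 were called, with 1, 4 and 2 at an unadjusted p under 0.05 in the 3 comparisons. Tug1, a widely expressed noncoding RNA, had an RPKM of 27.7 and 34.5 in wild-type, 28.7 and 28.0 in mutant and 185.5 and 66.3 in Wnt1-Ribotag libraries, a log2 fold change of 1.83 against wild-type (SE 0.50, adjusted p = 0.189 from limma). Gas5, a host of small nucleolar RNAs, had 41.5 and 48.6 in wild-type, 53.3 and 60.4 in mutant and 81.3 and 137 in Wnt1-Ribotag libraries, a log2 fold change of 1.22 (adjusted p = 0.178). Xist went the other way, with 144 and 182 in wild-type and 71.4 and 52.8 in Wnt1-Ribotag libraries, a log2 fold change of -1.39 (adjusted p = 0.152). Xist is transcribed in female cells, and the sex of the embryos and its share in the pooled litters are not given, so its part in this value was not tested. Airn, the antisense RNA of the Igf2r locus, had 21.2 and 24.1 in wild-type and 17.6 and 12.2 in Wnt1-Ribotag libraries, a log2 fold change of -0.61 (adjusted p = 0.246). Dnm3os gave 0.03 and Snhg11, which M21 lists as protein coding, 0.62. Values of noncoding RNAs thus stood on both sides of their whole-muscle level in Wnt1-Ribotag RNA.

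Genes with the most similar course over the 6 libraries were sought for the 3 members of widest range among the 9082 genes whose mean RPKM was 5 or more. Likeness was the root-mean-square difference of centred log2 values. For Dlk1 the nearest was Myod1, the myogenic transcription factor, at 0.077, with an RPKM of 55.1 and 52.1 in wild-type, 55.2 and 35.0 in mutant and 30.5 and 38.6 in Wnt1-Ribotag libraries. Plod3 (0.081) and Clptm1 (0.084) followed. For H19 they were Jam2 (0.042), Pknox1 (0.063) and Rad52 (0.065), and for Cdkn1c Zfp771 (0.058), Fitm1 (0.079) and Efhd2 (0.080). Among the members, Peg3 and Plagl1 were most alike (0.077), then Mest and Plagl1 (0.079), and H19 and Cdkn1c least (0.564). With 6 libraries and 9082 genes, close matches arise in number, and the values are a description.

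Most microRNA precursors around Meg3 had no reads in Wnt1-Ribotag RNA. They were taken up after their values had been seen and are given as a description. The files hold 45 microRNA entries between Dlk1 and Dio3, between 63 and 124 bases long. A gene without reads carries a floor value worth 1 read, and the files mark it. An entry with 1 read has the same value without the mark, so entries were counted by the mark and not by the value. Unmarked were 31 and 33 of the entries in wild-type, 33 and 33 in mutant and 7 and 5 in Wnt1-Ribotag libraries. Of the 24 unmarked in all whole-muscle libraries, 18 (75%) were marked in both Wnt1-Ribotag libraries and 4 unmarked in both. The 24 include entries with 1 read in a whole-muscle library, such as Mir1197 in wild-type 6 and Mir496a in mutant 2. Among 370 microRNA entries elsewhere, 46 were unmarked in all whole-muscle libraries, and 26 of them (56.5%) were marked in both Wnt1-Ribotag libraries. MicroRNA entries without reads in Wnt1-Ribotag RNA were thus found across the genome.

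Where the value came to a whole number of reads within 0.05, the reads are given. Mir335, in an intron of Mest, had 3 and 16 reads in wild-type, 6 and 7 in mutant and 0 in both Wnt1-Ribotag libraries, although Mest itself had an RPKM of 627 and 455 there. Mir770, in a part of Meg3 that M21 annotates as exon, had 6 and 11 in wild-type, 10 and 8 in mutant and 0 in both Wnt1-Ribotag libraries, whereas Meg3 as a whole had an RPKM of 157 and 148 there. Mir434, opposite an exon of Rtl1, had 15 and 78 in wild-type, 43 and 43 in mutant and 0 in both Wnt1-Ribotag libraries. A count of 0 allows up to 3 reads, so single entries with few reads in whole muscle, such as Mir335 in wild-type 5, are within counting error. Rtl1, named here after its values were seen, had an RPKM of 13.4 and 14.6 in wild-type and 18.98 and 15.4 in Wnt1-Ribotag libraries.

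Of the 4 entries unmarked in both Wnt1-Ribotag libraries and in all whole-muscle libraries, Mir1906-1 lies in an exon of Meg3. Mir431 and Mir433 lie opposite an exon of Rtl1, and Mir412 lies outside Meg3 and Rtl1. Whether it lies in another noncoding host gene was not checked. Mir1906-1, within an exon of Meg3, had an RPKM of 292 and 321 in wild-type, 431 and 274 in mutant and 277 and 303 in Wnt1-Ribotag libraries. Mir433, opposite an exon of Rtl1, had 6.73 and 7.80 in wild-type, 8.25 and 4.72 in mutant and 7.37 and 13.4 in Wnt1-Ribotag libraries. Of the 7 entries that overlap exons of Meg3 or Rtl1 on either strand, 4 were marked in both Wnt1-Ribotag libraries. Of 17 others unmarked in all whole-muscle libraries 14 (82.4%) were. Mir412 had more reads in both Wnt1-Ribotag libraries, 43 and 113, than in wild-type, 7 and 9, and mutant libraries, 10 and 10. In a single Wnt1-Ribotag library, reads exceeded those of whole muscle also in Mir369 (43 against at most 20), Mir1193 (46 against at most 7) and Mir323 (9 against at most 3), each at the floor in the other. Protein-coding genes were taken with a mean RPKM in whole muscle of 0.0811 to 3.58, the range of these entries without their lowest and highest. Mir1188, with 4.34 to 7.84 there, lies above it. Of the 5441 such genes unmarked in all whole-muscle libraries, 2.89% were marked in both Wnt1-Ribotag libraries. Protein-coding genes are longer and hold more reads at the same RPKM, and the part of length in this difference was not tested.

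**Figure D5:**
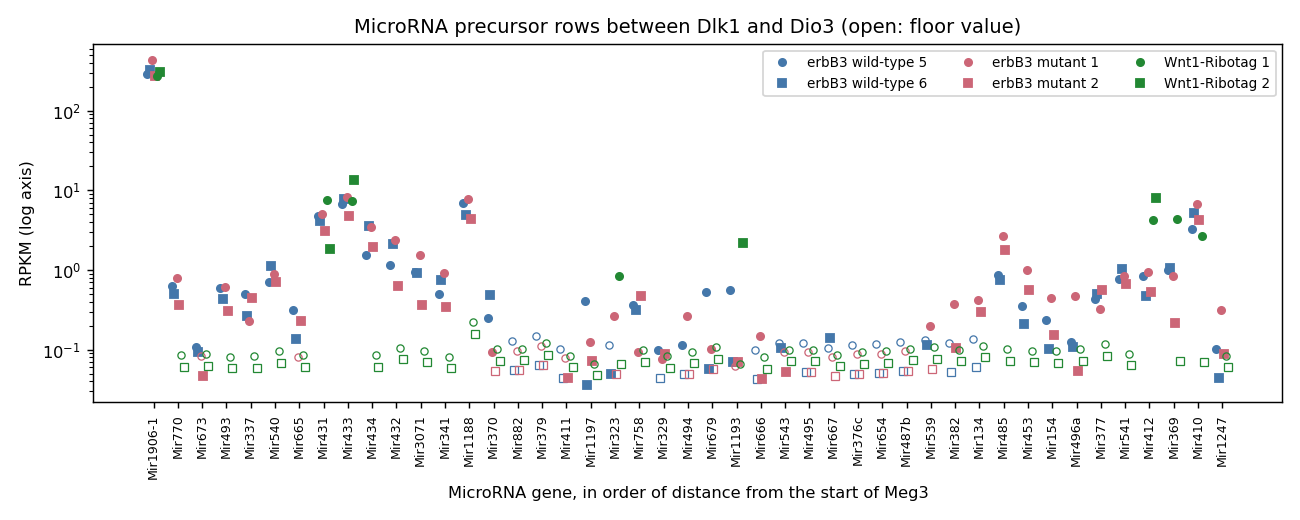
RPKM on a log axis of the 45 microRNA entries between Dlk1 and Dio3, ordered by distance from the start of Meg3, with open symbols for values marked as the floor. Most filled symbols belong to whole-muscle libraries, while 7 and 5 entries are unmarked in Wnt1-Ribotag 1 and 2.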

How the data were processed

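RNA of diaphragm muscle was sequenced in 6 libraries. For each gene RPKM (reads scaled by gene length and library depth) were deposited by the authors, beside a mark that is 1 for a gene given a floor value for lack of reads. Read counts were not used here. The submitters' processing notes name STAR and mm9, and the counting program and its strand setting are not given in the sources used here. Of 23076 Ensembl identifiers, 21586 matched a symbol in GENCODE M21, whose GRCm38 positions are given, and 3 entries hold no value. Depth was read from the floor of 223 microRNA genes, which gave a single depth in 81.2% of cases.

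Tests used limma 3.58.1 under R 4.3.3 (lmFit and a trended eBayes) on log2(RPKM + 0.5) of the genes whose RPKM averaged 0.5 or more over the 4 libraries compared. P-values were adjusted by Benjamini and Hochberg's method over all genes tested, the threshold was 0.05, and no block was used. A fold change on this scale understates that of low genes. The procedure was tested on simulated data. Genes at least 2-fold apart in all 4 pairs were counted without a test. Python 3.11.15 with pandas 2.3.3, numpy 2.4.6 and matplotlib 3.10.9 served for tables and figures.

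The members, lists and tests were chosen with earlier results of these data known. Named are all members, other imprinted genes that were called or 2-fold apart in all pairs or among the 5 highest, the tested genes of the noncoding and IGF lists, the 3 genes most like each of the 3 members of widest range, and defining markers. The alternatives were a replicate block, leaving out each library, quantile normalization or median-ratio scaling, other pseudocounts (0.1 and 1), a filter at a mean of 1 or none, eBayes with no trend, a joint fit of the 6 libraries and a 1.5-fold threshold.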

Additional observations from a re-analysis of the deposited data

How the results depend on the processing

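No member was called in any comparison with quantile normalization or median-ratio scaling, pseudocounts of 1 or 0.1, a filter at a mean RPKM of 1 or none, eBayes with no trend, or a joint fit of the 6 libraries. Of 370 log2 fold changes of members under the alternatives, 6 were called and 39 had the other sign, and 0 of the calls were among the latter. The members 2-fold apart in all pairs stayed at 0, also at 1.5-fold. Over all genes the number called went from 0 (no filter) to 106 (without wild-type 5) in mutant vs. wild-type, from 0 (no filter) to 5965 (without Wnt1-Ribotag 2) in Wnt1-Ribotag vs. wild-type, and from 81 (quantile normalization) to 3672 (without Wnt1-Ribotag 2) in Wnt1-Ribotag vs. mutant. When libraries were left out in turn, 0 to 3 members were called in Wnt1-Ribotag vs. wild-type and 0 in the other comparisons. The lone library is then assumed to vary like the other group. Under the replicate block, which matches Wnt1-Ribotag and mutant libraries by their numbers, 2 members were called in Wnt1-Ribotag vs. mutant, H19 (adjusted p = 0.0421 from limma) and Cdkn1c (0.0153), and 842 genes in all against 171. The 2 pairs share only a number, and the deviations of same-numbered libraries correlated at 0.168. Wild-type numbers differ from the others, so no such pairs exist there.

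Signs turned in uncalled values. Median-ratio scaling, which moved the median over all genes in mutant vs. wild-type from -0.10 to -0.00073 on the log2 scale, gave 0.073 for Meg3 and 0.014 for Grb10 in that comparison, 0.038 for Meg3 and 0.031 for Plagl1 in Wnt1-Ribotag vs. wild-type, and -0.028 for Meg3 in Wnt1-Ribotag vs. mutant. Quantile normalization gave -0.057 for Ndn in mutant vs. wild-type, 0.11 for Meg3, 0.085 for Peg3, 0.17 for Plagl1 and 0.023 for Peg10 in Wnt1-Ribotag vs. wild-type, and 0.18 for Grb10 in Wnt1-Ribotag vs. mutant. It sets genes of equal rank equal, and H19 had 0 in all 3 comparisons. The cause of the other sign changes was not tested. When each library was left out, the sign of these values turned. In mutant vs. wild-type the range was -0.031 to 0.16 for H19, -0.19 to 0.22 for Ndn, -0.38 to 0.29 for Meg3, -0.25 to 0.0093 for Mest, -0.65 to 0.027 for Peg10. In Wnt1-Ribotag vs. wild-type the range was -0.16 to 0.31 for Mest, -0.51 to 0.24 for Ndn, -0.080 to 0.0064 for Meg3, -0.32 to 0.13 for Peg3, -0.18 to 0.087 for Plagl1, -0.43 to 0.028 for Grb10. In Wnt1-Ribotag vs. mutant the range was -0.66 to 0.034 for Dlk1, -0.53 to 0.22 for Ndn, -0.33 to 0.34 for Meg3, -0.15 to 0.30 for Peg3, -0.033 to 0.23 for Plagl1, -0.23 to 0.45 for Peg10, -0.036 to 0.43 for Mest, -0.33 to 0.13 for Grb10. Without Cdkn1c, the share of H19 and Meg3 was 65.2%, 69.3% and 74.0% in wild-type, mutant and Wnt1-Ribotag means, as the sum then holds less coding RNA, and with Igf2 added, an alternative chosen after the data were seen, it was 51.7%, 54.6% and 56.6%. With 2 libraries a group and no read counts, counting error was not separated from the spread between libraries.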
